A study of Mus musculus with 29 samples.

Results

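Microglia and the other macrophages of the embryonic brain were followed through 10 of their genes: Csf1r, Aif1, Ptprc, Cx3cr1, Mrc1, C1qa, C1qb, C1qc, Tyrobp and Fcer1g. The genes were chosen by name from the 25239 genes in the count tables, and all 10 had enough counts to be tested. The 8 RNA-seq libraries came from brain tissue of E11.5 mouse embryos and fell into 4 groups of 2 pools: wild-type midbrain, midbrain of hs654 knockout embryos, wild-type forebrain and forebrain of hs267-853 knockout embryos. hs654 and hs267-853 are names of enhancers, and each deletion was studied in 1 tissue only. The labels give no strain, and they do not say whether the second number of hs267-853 stands for another deleted element. Each pool combined tissue of several embryos, so p-values measure the spread between pools. The series also has 21 samples of enhancer-capture Hi-C, not analysed here.

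Macrophages are the resident phagocytes of the developing brain. The earliest of them derive from yolk sac progenitors, reach the neural tube before blood-borne leukocytes are common there, and settle as microglia inside the neuroepithelium or as macrophages of the meninges, choroid plexus and vessels. The receptor encoded by Csf1r, activated by the ligands Csf1 and Il34, keeps these cells alive, and mice without it lack microglia. Other cells of the brain at this stage express little of the 10 genes, but Ptprc marks all white blood cells, Fcer1g is also used by mast cells and platelets, and Mrc1 can be expressed by some vessel linings.

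The myeloid transcription factor PU.1, encoded by Spi1, binds sites built on the letters GAGGAA, and the promoters of these genes were therefore searched for this core. RefSeq start sites (assembly GRCm38.p6, the assembly behind mm10) were available for 7 of the 10 genes. The 150 bases before the start are shown for Cx3cr1, Mrc1, C1qb and C1qc, which differed between wild-type tissues and had an entry. They are written 5′ to 3′ on the gene's strand, with the core in capitals on either strand (GAGGAA or TTCCTC).
Cx3cr1, chr9:120068297-120068446, minus strand: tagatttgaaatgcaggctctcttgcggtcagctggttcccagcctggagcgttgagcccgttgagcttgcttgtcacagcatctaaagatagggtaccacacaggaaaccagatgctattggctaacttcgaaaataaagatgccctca
Mrc1, chr2:14229264-14229413, plus strand: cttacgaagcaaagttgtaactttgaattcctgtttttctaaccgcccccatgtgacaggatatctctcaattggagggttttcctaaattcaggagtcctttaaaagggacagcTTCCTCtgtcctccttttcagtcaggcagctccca
C1qb, chr4:136886201-136886350, minus strand: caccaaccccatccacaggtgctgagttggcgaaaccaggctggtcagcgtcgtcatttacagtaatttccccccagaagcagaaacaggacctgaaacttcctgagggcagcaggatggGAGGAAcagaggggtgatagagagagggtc
C1qc, chr4:136892915-136893064, minus strand: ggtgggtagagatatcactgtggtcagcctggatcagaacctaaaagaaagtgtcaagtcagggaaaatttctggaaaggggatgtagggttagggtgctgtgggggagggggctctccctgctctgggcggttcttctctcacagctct
In this stretch the core was present once before Mrc1 and once before C1qb, and the Cx3cr1 and C1qc windows did not hold these letters. Of 8 windows of the 7 genes, 3 held the core (Aif1, Mrc1 and C1qb), beside 14.5% of all 32851 windows in the table. Over 300 bases, including 50 after the start, the core was in 5 of 8 windows (Aif1, C1qb, C1qc, Mrc1 and Ptprc), beside 28.3% of all windows. A match of letters is a description and not a binding site.

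Total counts over genes ran from 9051632 to 18024406 per library, and levels are given as CPM, counts scaled by the TMM-adjusted library total. Counts of the 10 genes ranged from a low 14 to 25 per library for Aif1 to 273 to 521 for Mrc1. Transcripts at 0 counts may lie anywhere below 3 counts, or 0.170 to 0.328 CPM depending on the library; this limit covers counting error only. Gene lengths were not at hand, so levels are not corrected for length, and different genes are set side by side by counts or CPM only. The labels name no cell sort. The summed level of the 10 genes was 94.9 to 113 CPM in midbrain and 52.0 to 71.3 CPM in forebrain (4 libraries each). The summed levels of 9 neuronal markers were 3450 to 3896 and 1487 to 2096 CPM, and those of 10 endothelial markers 281 to 348 and 362 to 369 CPM, in midbrain and forebrain. Most markers of other leukocytes were scarce. A set of 10 lymphoid and mast cell markers summed to 0.63 to 1.76 CPM per library, with Mcpt4 and Tpsb2 at 0 counts in all 8. The 10 monocyte and granulocyte markers summed to 3.08 to 7.65 CPM, with Ly6g at 0 counts in all 8 libraries. Among them Prtn3 had 27 to 49 counts per library and Mpo 9 to 31, so by counts alone they were not scarcer than Aif1 in every case. For the border and yolk sac macrophage marker Cd163 there were 0 counts in 6 libraries and 2 and 1 counts in wild-type midbrain.

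In wild-type embryos 6 of the 10 genes fell from midbrain to forebrain, and the other 4 also had negative log2 fold changes that did not pass. The 6 were the growth factor receptor Csf1r, the chemokine receptor Cx3cr1, the mannose receptor Mrc1 and the complement genes C1qa, C1qb and C1qc. Their levels in forebrain were lower by 1.55-fold for Mrc1 to 1.92-fold for C1qc. Calls came from edgeR (quasi-likelihood F test, Benjamini-Hochberg adjusted over 15383 genes, threshold 0.05), which called 29.6% of all genes between these tissues and 15.3% as lower in forebrain. A negative sign alone was found for 49.9% of all genes. In 8 of the 10 genes both forebrain pools lay below both midbrain pools, all but Ptprc and Tyrobp, beside 32.7% of all genes. The median log2 fold change, forebrain minus midbrain, was -0.66 over the 10 genes and 0.0012 over all genes tested. In bulk tissue, fewer macrophages and less RNA per macrophage cannot be told apart. The neuronal and endothelial sums given above moved with the tissue as well, and their part in the difference was not tested. With 1 library left out, the sign stayed negative for all 10 genes, but the number past the threshold became 4 on leaving out replicate 1 of either wild-type tissue, and 1 (Csf1r) on leaving out replicate 2 of either. Among all genes the called share then was 17.9% to 22.1%. DESeq2 called 4 of the 10, beside 23.9% of all genes.

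**Figure D1:**
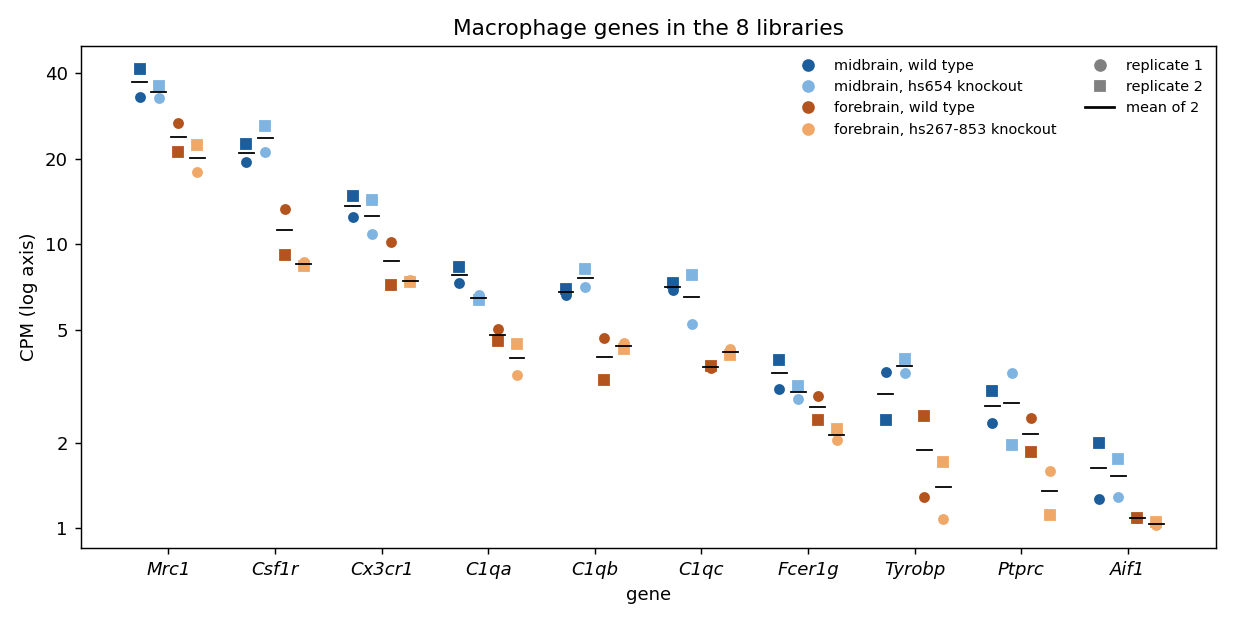
Level of each of the 10 genes in CPM (log axis) in every library, by group, with circles for replicate 1, squares for replicate 2 and a bar at the mean of 2. For Csf1r the 4 midbrain libraries lie between 19.4 and 26.0 CPM and the 4 forebrain libraries between 8.38 and 13.3 CPM.

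Csf1r encodes the receptor for the growth factors on which macrophages depend. It measured 19.4 and 22.4 CPM in wild-type midbrain, 21.2 and 26.0 in hs654 knockout midbrain, 13.3 and 9.13 in wild-type forebrain, and 8.68 and 8.38 CPM in hs267-853 knockout forebrain (replicates 1 and 2). Every midbrain library was above every forebrain library, and within forebrain the wild-type replicate 1 was highest. Wild-type forebrain differed from wild-type midbrain by -0.89 on the log2 scale (SE 0.178, 95% interval -1.27 to -0.50; edgeR, adjusted p 0.00227). Of the 10 genes it was the only one to pass under all 12 alternatives tried, with log2 fold changes of -1.19 to -0.65.

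Cx3cr1 is the receptor for the neuronal chemokine encoded by Cx3cl1 and is a standard marker of microglia (chr9:120048683-120068296, GRCm38.p6 here and below). Its level was 12.5 and 14.8 CPM in wild-type midbrain, 10.8 and 14.3 in knockout midbrain, 10.2 and 7.20 in wild-type forebrain, and 7.49 and 7.33 CPM in knockout forebrain. The lowest midbrain library, knockout replicate 1, was close above the highest forebrain library, wild-type replicate 1. In wild type it differed by -0.64 on the log2 scale (SE 0.200; edgeR, adjusted p 0.0288). It was -0.41 without forebrain wild-type replicate 2, with an adjusted p of 0.225, and -0.51 without midbrain wild-type replicate 2, with an adjusted p of 0.162.

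Mrc1 encodes the mannose receptor, an endocytic receptor that is high in macrophages of the brain's borders and in early embryonic macrophages (chr2:14229414-14332023). It had the most counts of the 10 genes, with 33.0 and 41.5 CPM in wild-type midbrain, 32.8 and 35.9 in knockout midbrain, 26.7 and 21.1 in wild-type forebrain, and 17.9 and 22.3 CPM in knockout forebrain. The tissues did not overlap. Wild-type tissues differed by -0.63 in log2 units (SE 0.150; edgeR, adjusted p 0.00661). Without forebrain wild-type replicate 2 the value was -0.47 and its adjusted p 0.0817, and without midbrain wild-type replicate 2 they were -0.46 and 0.0735.

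C1qa, C1qb and C1qc encode the chains of C1q, the recognition molecule of the classical complement pathway, which tags material for removal by phagocytes. The genes lie side by side in the order C1qb, C1qc, C1qa within 18719 bases (chr4:136880126-136898844), with no other RefSeq gene inside. In wild-type midbrain C1qa measured 7.27 and 8.31 CPM, C1qb 6.64 and 6.95, and C1qc 6.90 and 7.27. In wild-type forebrain the values were 5.02 and 4.57 for C1qa, 4.68 and 3.33 for C1qb, and 3.66 and 3.71 CPM for C1qc. The knockout libraries of each tissue were near these levels, at 5.25 to 8.19 CPM in midbrain and 3.46 to 4.48 CPM in forebrain over the C1q genes, and none of the C1q genes overlapped between tissues. The wild-type log2 fold changes were -0.69 (SE 0.217) for C1qa, -0.75 (SE 0.232) for C1qb and -0.94 (SE 0.241) for C1qc. All 3 passed in edgeR (adjusted p 0.0287, 0.0265 and 0.0105). In DESeq2, C1qa and C1qb missed the threshold (0.0906 and 0.0723), and C1qa missed it whichever wild-type library was left out (adjusted p 0.0665 to 0.145). C1qb passed only without forebrain wild-type replicate 1 (0.0246; 0.0886 to 0.187 otherwise), and C1qc only without midbrain wild-type replicate 1 (0.0450; 0.0505 to 0.0576 otherwise).

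Tyrobp and Fcer1g encode small adaptors that pass signals from activating receptors to kinases such as Syk. Tyrobp (chr7:30413782-30417582) measured 3.54 and 2.40 CPM in wild-type midbrain, 3.53 and 3.93 in knockout midbrain, 1.29 and 2.48 in wild-type forebrain, and 1.08 and 1.70 CPM in knockout forebrain. Forebrain wild-type replicate 2 was just above midbrain wild-type replicate 2, so the tissues overlapped. Fcer1g (chr1:171229572-171234349) had 2.84 to 3.91 CPM in midbrain and 2.04 to 2.92 CPM in forebrain, again with overlap. Neither passed between wild-type tissues, with log2 fold changes of -0.68 (SE 0.398, adjusted p 0.226) and -0.39 (SE 0.299, adjusted p 0.368), both from edgeR.

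Ptprc encodes the leukocyte surface phosphatase CD45, and Aif1 the calcium-binding protein IBA1 by which microglia are commonly stained. Ptprc (chr1:138062859-138175756) ranged from 1.97 to 3.53 CPM in midbrain and from 1.11 to 2.44 CPM in forebrain, with overlap. Aif1 (chr17:35170986-35176083) was at 1.27 and 2.00 CPM in wild-type midbrain, 1.29 and 1.75 in knockout midbrain and 1.02 to 1.09 CPM in the 4 forebrain libraries, without overlap. With 14 to 41 counts per library, neither difference passed: the wild-type log2 fold changes were -0.31 (SE 0.383, 95% interval -1.14 to 0.52) for Ptprc and -0.57 (SE 0.440, 95% interval -1.52 to 0.38) for Aif1.

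The tissue difference was also fitted over both genotypes, 4 libraries against 4, an alternative chosen after the data were seen. In edgeR 7 of the 10 genes were then lower in forebrain, beside 21.6% of all genes tested, with Tyrobp added to the 6 named above. The levels of 7 genes did not overlap between the tissues and were lower in forebrain, beside 20.3% of all genes. Csf1r had a log2 fold change of -1.17 (SE 0.128, adjusted p 8.5e-06, edgeR) and Tyrobp one of -1.05 (SE 0.285, adjusted p 0.00909, edgeR). Tyrobp was past the threshold except without midbrain wild-type replicate 1 (0.0509). Ptprc was outside it at 0.0690 and inside it in 3 of 14 alternatives. The deletions differ between the tissues in this fit.

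**Figure D2:**
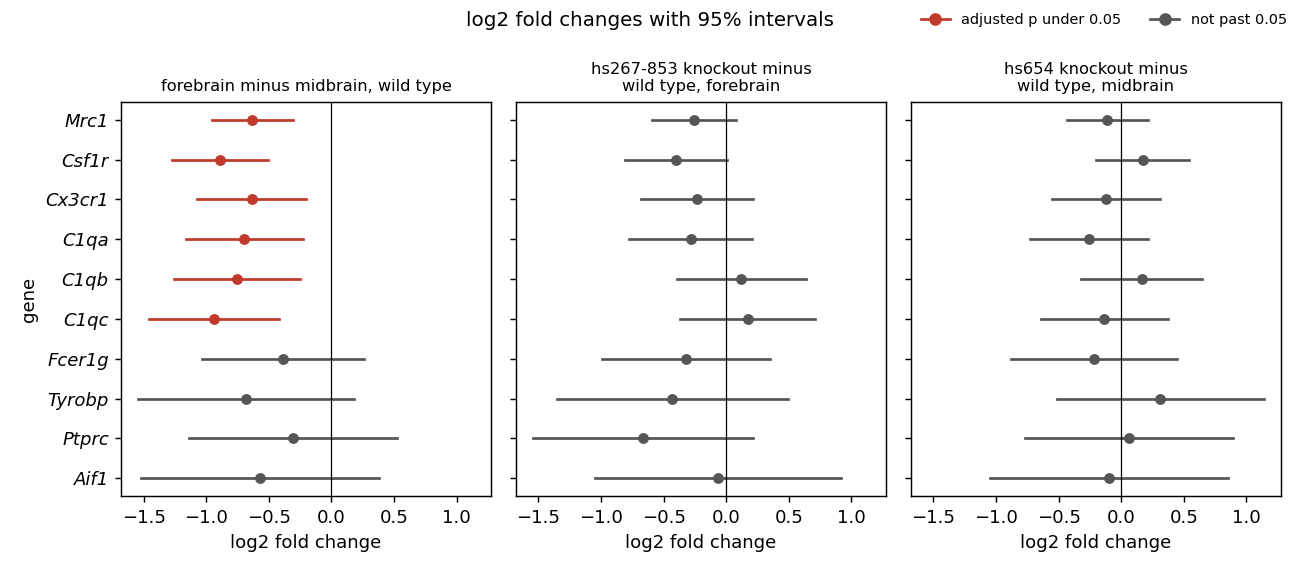
log2 fold change of each of the 10 genes (point) with its 95% interval (line) in the comparison of wild-type tissues and in the knockout comparisons, with genes past an adjusted p of 0.05 in red. Only the tissue comparison has red genes: 6 of the 10, from -0.94 for C1qc to -0.63 for Mrc1.

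In the ratio of 2 genes within a library, depth and scaling cancel. The count ratio of Csf1r to Cx3cr1 was 1.52 to 1.95 in the 4 midbrain libraries and 1.14 to 1.31 in the 4 forebrain libraries, without overlap. That of Mrc1 to Csf1r was 1.38 to 1.85 in midbrain and 2.01 to 2.66 in forebrain. Mrc1 to Cx3cr1 gave 2.51 to 3.02 in midbrain and 2.39 to 3.04 in forebrain, and C1qa to C1qb gave 0.773 to 1.20 and 0.772 to 1.37, both overlapping. Ptprc to Csf1r gave 0.0756 to 0.167 in midbrain and 0.133 to 0.203 in forebrain, also overlapping. Csf1r was thus higher in midbrain relative to Cx3cr1 and Mrc1, but not without overlap relative to Ptprc. These ranges pool the genotypes, and the deletions differ between the tissues. Wild-type libraries alone gave 1.56 and 1.52 in midbrain and 1.31 and 1.27 in forebrain for Csf1r to Cx3cr1. For Mrc1 to Csf1r they gave 1.70 and 1.85 in midbrain and 2.01 and 2.31 in forebrain (replicates 1 and 2). The 95% counting intervals of single libraries overlapped between tissues for Mrc1 to Csf1r, for example 1.59 to 2.14 in midbrain and 1.69 to 2.39 in forebrain (wild-type replicates 2 and 1), and for Csf1r to Cx3cr1, for example 1.26 to 1.84 in midbrain wild-type replicate 2 and 1.05 to 1.63 in forebrain wild-type replicate 1. In all, 8 such ratios were computed, with the levels already known, and no test was made.

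**Figure D3:**
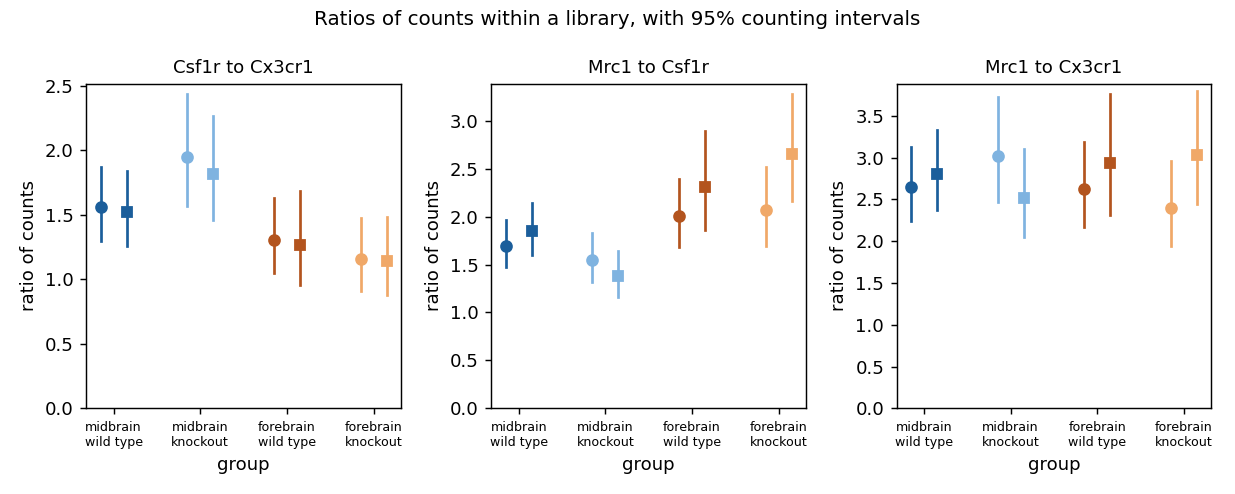
Ratio of counts of 2 genes within each library (vertical axis, from 0) with exact 95% binomial counting intervals, by group, circles for replicate 1 and squares for replicate 2. The ratio of Csf1r to Cx3cr1 is 1.52 to 1.95 in midbrain and 1.14 to 1.31 in forebrain, while Mrc1 to Cx3cr1 overlaps between the tissues.

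Further macrophage genes were read from lists. The counts past the threshold in wild type, here and below, stand beside 29.6% of all genes called and 15.3% called lower in forebrain. Of 12 phagosome and lysosome genes 11 were tested, all 11 had negative log2 fold changes from midbrain to forebrain and 4 passed, with a median log2 fold change of -0.40. These were Fcgrt, a receptor that recycles immunoglobulin (-1.41, adjusted p 0.000455), Ctss, a lysosomal protease of phagocytes (-1.02, 0.0299), Apoe, a lipid carrier (-0.32, 0.0258), and Coro1a, an actin-binding protein (-0.32, 0.0453), each with edgeR's adjusted p. Apoe at 56.1 to 90.7 CPM and Coro1a at 22.1 to 30.3 CPM are also expressed by neural cells. Ctss measured 5.95 and 3.75 CPM in wild-type midbrain and 2.92 and 1.86 CPM in wild-type forebrain.

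Among 11 tested receptors, kinases and phosphatases that work with the adaptors, 10 had negative values, with a median of -0.49, and 1 passed. This was Syk, the kinase that binds phosphorylated Tyrobp and Fcer1g, at 10.2 and 12.0 CPM in wild-type midbrain and 6.18 and 7.51 CPM in wild-type forebrain (-0.69, SE 0.192, adjusted p 0.0153, edgeR). Trem2, a lipid-sensing receptor that signals through Tyrobp, had a value of -0.61 (SE 0.445) and did not pass. Of 8 further complement genes tested, 6 had negative values, with a median of -0.49.

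Among 12 microglia markers, 7 had negative values, with a median log2 fold change of -0.38; 1 passed as lower and 2 as higher in forebrain. P2ry12, a purine receptor of microglia, was at 2.78 and 2.48 CPM in wild-type midbrain and 0.407 and 1.08 CPM in wild-type forebrain (-1.84, SE 0.470, adjusted p 0.0101, edgeR). Sall1 (0.74, adjusted p 3.06e-05) and Tmem119 (0.80, adjusted p 0.0115) rose in forebrain. Over both genotypes 3 were called lower (P2ry12, Gpr34 and Fcrls) and 1 higher (Sall1). In that fit 21.6% of all genes were called lower and 44.3% in either direction. Sall1 is also a gene of neural progenitors, with 81.5 to 158 CPM in these libraries, and Tmem119 is also expressed in mesenchyme. Of 7 tested markers of border and yolk sac macrophages 6 had negative values, with a median of -0.23, and 1 passed. F13a1, a transglutaminase of embryonic macrophages, measured 30.3 and 32.5 CPM in wild-type midbrain and 17.7 and 11.6 CPM in wild-type forebrain (-1.09, SE 0.184, adjusted p 0.00066, edgeR). Stab1 had a value of -0.012 and Lyve1 one of -0.12, both genes that vessel linings also express, and neither passed. Over both genotypes all 7 border and yolk sac markers had negative values and 3 were called lower, beside the 21.6% of all genes.

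Among 10 transcription factors of the myeloid lineage, 7 had positive values in forebrain, with a median log2 fold change of 0.16, and 1 passed, Batf3 (1.85, SE 0.482, adjusted p 0.0110, edgeR), a factor of dendritic cells. Spi1, named for its role, was at 1.77 and 2.40 CPM in wild-type midbrain and 2.24 and 1.70 CPM in wild-type forebrain, a log2 fold change of -0.062 (SE 0.353, adjusted p 0.915, edgeR). Irf8, which microglia need to mature, had a value of -0.37 (SE 0.291) and did not pass.

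Growth factor and chemokine ligands were tested for the same contrast: the ligands of Csf1r and Cx3cr1 (Csf1, Il34 and Cx3cl1), Cxcl12 and Tgfb1. In edgeR 0 of the 5 passed, with 0 at an unadjusted p under 0.05. Csf1 measured 12.0 and 13.6 CPM in wild-type midbrain and 12.0 and 12.9 CPM in wild-type forebrain (-0.032, SE 0.163). Cx3cl1, named as the ligand of Cx3cr1, measured 10.1 and 10.6 CPM in midbrain and 10.2 and 10.9 CPM in forebrain (0.029, SE 0.159). Il34, the other ligand of Csf1r, was near the detection limit, with 5 and 10 counts in wild-type midbrain, 4 and 9 in knockout midbrain, 1 and 4 in wild-type forebrain and 0 in both knockout forebrain libraries. Its wild-type log2 fold change was -1.52 (SE 0.979) and did not pass. Over both genotypes it was called lower in forebrain (edgeR, adjusted p 0.00797), 1 of the 5 ligands beside 21.6% of all genes. That call rested on 0 to 4 counts per forebrain library, and no fold is given because the knockout forebrain libraries were at 0.

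**Figure D4:**
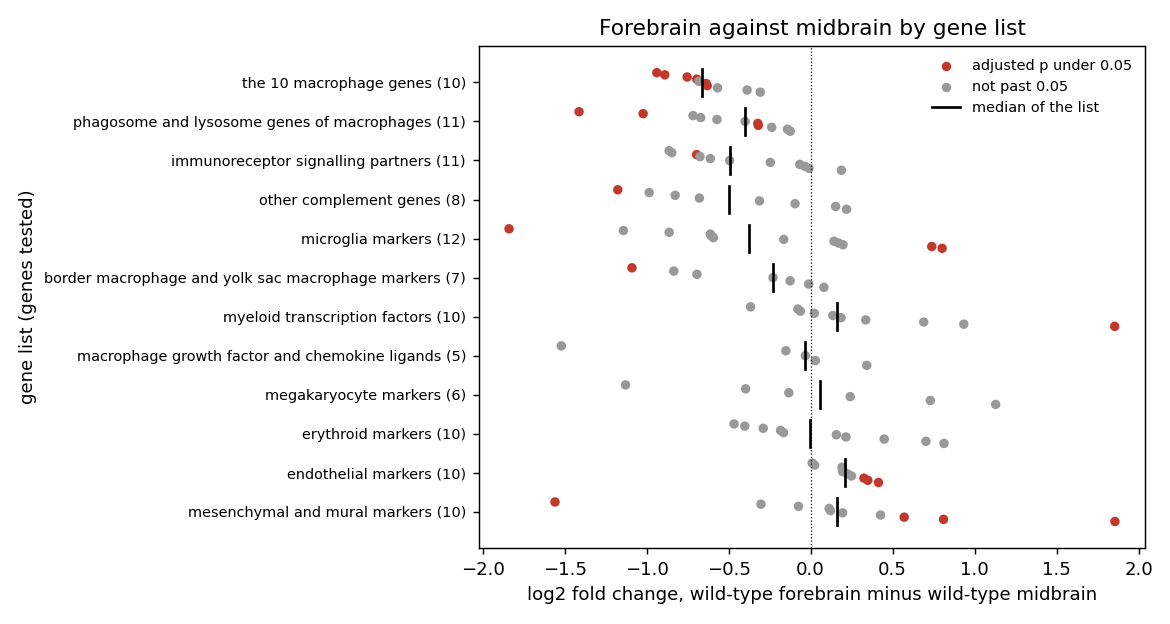
log2 fold change between wild-type forebrain and wild-type midbrain for each tested gene (points, red past an adjusted p of 0.05) in 12 gene lists, with the median of each list as a bar. The 10 macrophage genes all lie left of 0 with a median of -0.66, while the myeloid transcription factors have a median of 0.16 and the endothelial markers one of 0.21.

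Vessel and blood markers were compared in the same contrast. All 10 endothelial markers had positive values in wild-type forebrain, with a median of 0.21, and 3 passed (Kdr 0.33, Flt1 0.35 and Egfl7 0.41). Among 10 mesenchymal and mural markers Twist1 (1.86), Pdgfra (0.81) and Pdgfrb (0.57) were higher and Rgs5 (-1.56) lower. All 9 neuronal markers fell, with a median of -0.91, while 4 of 9 neural progenitor markers rose and 3 fell. Of 6 megakaryocyte markers 0 passed in edgeR, with a median of 0.054. How far these other cell types bear on the macrophage genes was not tested. The 10 erythroid markers tested were split 5 to 5 with a median of -0.0039, and 0 passed in edgeR. Their sum was highest in midbrain wild-type replicate 1, at 6793 CPM beside 3369 to 4845 CPM in the other 7 libraries. In that library the 10 macrophage genes summed to 95.9 CPM, beside 113 CPM in midbrain wild-type replicate 2. The knockout midbrain libraries had 94.9 and 109 CPM. Any part of blood content in these sums was not tested.

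In forebrain of hs267-853 knockout embryos 0 of the 10 genes passed in edgeR, DESeq2 or limma-voom, and 0 had an unadjusted p under 0.05 in edgeR. Over all genes the shares called were 0.013% in edgeR, 0.0845% in DESeq2 and 0.0065% in limma-voom. The share with an unadjusted p under 0.05 in edgeR was 4.78%. By sign, 8 of the 10 had a negative value in the knockout, beside 47.4% of all genes, with a median log2 fold change of -0.27 (all genes 0.0078). Both knockout libraries lay below both wild-type libraries for Csf1r, Aif1, Ptprc, C1qa and Fcer1g, 5 of 10 genes beside 13.9% of all genes. Some of these gaps were small. Aif1 was at 1.02 and 1.05 CPM in knockout and 1.09 and 1.08 CPM in wild type, on 18 and 16 against 16 and 14 counts. The nearest C1qa pools were at 4.45 CPM in knockout and 4.57 CPM in wild type. They lay above them for C1qc, 1 of 10 beside 17.2%. The smallest p was that of Csf1r, with a log2 fold change of -0.40 (SE 0.189, 95% interval -0.81 to 0.0087) and an adjusted p of 0.984 (edgeR). Ptprc had the lowest value, -0.66 (SE 0.405), and C1qc the highest, 0.17 (SE 0.249).

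The forebrain wild-type pools differed between themselves. The 10 genes summed to 71.3 and 56.9 CPM in the wild-type pools and to 52.0 and 56.8 CPM in the knockout pools (replicates 1 and 2). Wild-type replicate 1 stood above the other 3, and 8 of the 10 genes were higher in it than in replicate 2. Without it, the median log2 fold change was -0.086 and 7 genes had negative values. It was -0.38 without wild-type replicate 2, -0.12 without knockout replicate 1 and -0.38 without knockout replicate 2. Wild-type replicate 1 also had the highest sum of 10 mesenchymal and mural markers, 2138 CPM beside 1228 to 1870 CPM in the other forebrain libraries. In this comparison 8 of 10 such markers had negative values with a median of -0.28, none past the threshold, and their part in the result was not tested.

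In midbrain of hs654 knockout embryos 0 of the 10 genes passed in edgeR, DESeq2 or limma-voom, and 0 had an unadjusted p under 0.05 in edgeR, beside 0% and 3.96% of all genes. Log2 fold changes ran from -0.26 (SE 0.217) for C1qa to 0.31 (SE 0.381) for Tyrobp, with 6 of 10 negative, beside 50.3% of all genes, and a median of -0.11. The genotypes did not overlap for C1qa, 1 gene of 10 lower in the knockout beside 18.8% of all genes, and for C1qb, 1 of 10 higher beside 17.9%. For Csf1r the log2 fold change was 0.17 (95% interval -0.20 to 0.54) and for Mrc1 -0.11 (95% interval -0.44 to 0.21). Summed over the 10 genes the level was 95.9 and 113 CPM for wild-type pools and 94.9 and 109 CPM for knockout pools. The median turned to 0.11 without knockout replicate 1 and to 0.064 without wild-type replicate 2, and it was -0.20 without either of the other 2 libraries.

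The difference between the knockout effects, midbrain minus forebrain, was tested in the same model, where deletion and tissue differ together. It passed for 0 of the 10 genes in edgeR, DESeq2 and limma-voom, beside 0.0065%, 0.026% and 0.0065% of all genes. Csf1r, with 0.57 (SE 0.255), was the only one with an unadjusted p under 0.05 (0.0439, adjusted p 0.996, edgeR), 1 of 10 beside 4.02% of all genes. In DESeq2 and limma-voom 0 had one. The values were positive for 8 of the 10 genes, and for 3 of 10 without forebrain wild-type replicate 1.

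Over the 8 libraries all 45 pairs of the 10 genes had a positive Pearson correlation of log2 CPM, with a median of 0.81. The libraries share the tissue difference. After removal of each group's mean, the median was 0.32 and 32 of 45 pairs were positive, with the highest value for Csf1r and Cx3cr1 (0.99) and the lowest for Csf1r and Tyrobp (-0.73). Removing the means leaves 4 degrees of freedom, so these values only describe the libraries.

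Among 14311 other genes with a mean of at least 1 CPM, the 6 whose log2 CPM followed the mean of the 10 genes most closely over the 8 libraries were Usp11 (Pearson's r 0.993), Sptlc2 (0.992), Tm4sf1 (0.991), Ranbp3l (0.987), Gpr75 (0.986) and Pde4dip (0.986). Each was higher in all 4 midbrain libraries than in all 4 forebrain libraries. For Tm4sf1 the ranges were 6.11 to 8.52 CPM and 2.55 to 3.87 CPM, and for Usp11 103 to 112 CPM and 85.4 to 92.0 CPM. The 8 libraries share the 2 tissues, and these values are a description.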

How the data were processed

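RNA-seq libraries of 8 tissue pools were analysed. The deposited values are raw counts per gene symbol, without normalization; the submitters' processing notes name STAR, HTSeq, DESeq2 and build mm10, and versions, annotation and strand setting are not given in the sources used here. The 5 rows of each table that name no gene were left out. Reads assigned to genes made up 40.7% to 44.1% of those assigned, ambiguous or outside features. Entries counted as not aligned made up 49.2% to 49.4% of all entries other than those without a unique alignment.

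After filterByExpr and TMM scaling, a model with 1 coefficient per group was fitted over the 8 libraries together with edgeR 4.0.16 in R 4.3.3 (quasi-likelihood test, two-sided, Benjamini-Hochberg adjustment over 15383 genes, 8.75 prior and 4 residual degrees of freedom). Standard errors were taken from the log2 fold change and its F statistic, and 95% intervals from these. The procedure was tested on simulated data. Correlations used log2 CPM with a prior count of 2. The 10 genes, the gene lists and the tests were chosen with earlier results of these data known. From each other list up to 4 genes with the smallest p between wild-type tissues were named; Spi1, Trem2, Irf8, Cx3cl1, Stab1 and Lyve1 were named for their roles after their values were seen. For 1 gene of the complement list the result is not reported here. Other settings tried were scaling by RLE or by the upper quartile, a filter on a mean of 50 counts or none beyond a total above 0, DESeq2 1.42.0, limma-voom (limma 3.58.1), fits of only the groups compared, a replicate block, and fits lacking 1 library. No pools looked like 1 library deposited again (chi-square per degree of freedom between replicates 3.75 to 7.74).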

Additional observations from a re-analysis of the deposited data

How the results depend on the processing

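The number of the 10 genes past the threshold between wild-type tissues stayed at 6 under both other scalings, without a filter, with a mean of at least 50 counts (which left only these 6 genes tested), in limma-voom, in the 4 wild-type libraries alone and with the replicate block, beside 25.1% to 32.2% of all genes, and was 4 in DESeq2, beside 23.9%. With 1 library left out it was 1 to 4, beside 17.9% to 22.1%. In both knockout comparisons and in the difference between them it was 0 under every alternative tried. With the replicate block no call among the 10 genes changed; the numbers did not pair the samples (correlation of deviations -0.025 to 0.067). Leaving out 1 library gave both signs for single genes without a call. In hs267-853 knockout forebrain the log2 fold changes then ran from -0.46 to 0.043 for Cx3cr1, -0.098 to 0.39 for C1qb and -0.84 to 0.096 for Tyrobp. In hs654 knockout midbrain they ran from -0.40 to 0.25 for Aif1, -0.43 to 0.40 for Ptprc, -0.33 to 0.085 for Cx3cr1, -0.27 to 0.057 for Mrc1 and -0.43 to 0.14 for C1qc. Over all genes, calls without a filter rose from 0 to 22 in midbrain, from 2 to 161 in forebrain and from 1 to 111 for the difference, and DESeq2 gave 0, 13 and 4. Without forebrain knockout replicate 2 the forebrain count was 209, against 3 to 9 without 1 of the other 3 libraries, and that for the difference 64. The cause was not tested. Counts of 14 to 56 per library for Aif1, Ptprc, Tyrobp and Fcer1g limit what can be seen for these genes.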

Other observations

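For 2 genes of the other lists with an unadjusted p under 0.05 in a knockout comparison the values are given, chosen after they were seen. Spi1 measured 3.61 and 3.39 CPM in hs654 knockout and 1.77 and 2.40 CPM in wild-type midbrain, with a value of 0.76 on the log2 scale (SE 0.343, unadjusted p 0.0456, adjusted p 0.992, edgeR). Tmem119 measured 8.40 and 14.0 CPM in hs267-853 knockout and 19.2 and 15.6 CPM in wild-type forebrain, a log2 fold change of -0.65 (SE 0.205, adjusted p 0.883, edgeR). Neither passed the threshold. An unadjusted p under 0.05 was found in edgeR for 3.96% of all genes in the hs654 comparison and 4.78% in the hs267-853 comparison. Mesenchyme also expresses Tmem119, and 8 of 10 mesenchymal and mural markers had negative values in the hs267-853 comparison. Their part in the Tmem119 value was not tested.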
